A study of Mus musculus with 36 samples.

Results

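The set holds 10 genes of 38887 in the count table, chosen by name as receptors through which hematopoietic stem cells hold on to and home to their BM niche. They are *Cxcr4*, *Selplg*, *Cd44*, *Itgal*, *Itga4*, *Itgb1*, *Itga6*, *Vcam1*, *Tek* and *Robo4*. Each was followed across all 36 libraries, by cell type, infused agent and *Il27ra* genotype.

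The libraries come from 2 populations sorted within the Lin-Sca-1+c-Kit+ compartment: LT-HSC, which are CD150+CD48- (17 libraries), and HPC-1, which are CD150-CD48+ and are called ST-HSC in the labels (19 libraries). All mice were *Apoe*-/- on a C57BL/6 background and ate Western diet for 12 weeks, with PBS or Ang II infused over the last 2 weeks, and 5000 cells were sorted per sample. They carried 2 (WT), 1 (*Il27ra*+/-) or 0 (*Il27ra*-/-) intact copies of *Il27ra*, and the labels give neither sex, age nor batch. Libraries held 1980283 to 6861078 counts (median 3139364), at which the floor of 3 counts lies between 0.398 and 1.49 CPM. The labels do not say that replicates are separate animals. The paper gives numbers of mice per genotype for this sequencing, without naming the libraries. The p-values therefore measure spread between these samples. SEs are derived from the test statistics, and floors cover counting error only.

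Stem cells are drawn to the BM by a chemokine, slow down on selectins, and stop through integrins bound to vessel and matrix ligands. Other receptors, shared with endothelium, hold them near the niche. As they become multipotent progenitors their surface changes, and these receptors are among the molecules that change.

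*Il27ra*, the gene altered by design, was read before the members. In PBS LT-HSC it was at 17.1 CPM in the library labelled WT, 42.7, 23.8 and 25.5 CPM in those labelled *Il27ra*+/-, and 9.41, 6.93 and 16.3 CPM in those labelled *Il27ra*-/-. In Ang II LT-HSC it was at 42.8 and 51.7 CPM in WT, 30.1, 25.4, 27.0 and 32.8 CPM in *Il27ra*+/-, and 16.2, 11.6, 16.1 and 19.3 CPM in *Il27ra*-/-. So the single PBS WT library of LT-HSC lay just above the PBS *Il27ra*-/- values and within those of Ang II *Il27ra*-/-. The other WT and the *Il27ra*+/- libraries of LT-HSC lay above the *Il27ra*-/- values of both agents. *Agr2*, read below, was high in this PBS WT library as in the other WT libraries of LT-HSC. PBS HPC-1 had 8.26 and 11.9 CPM in WT, 15.5, 11.1 and 9.95 CPM in *Il27ra*+/-, and 6.68, 11.1 and 8.33 CPM in *Il27ra*-/-. Ang II HPC-1 had 10.2, 8.87 and 6.06 CPM in WT, 5.46, 9.57, 14.3 and 16.4 CPM in *Il27ra*+/-, and 6.62, 5.91, 4.63 and 9.03 CPM in *Il27ra*-/-. In HPC-1 the 3 genotypes overlapped, so this gene does not tell their labels apart.

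Besides that WT library, 2 *Il27ra*-/- libraries of LT-HSC are set apart here by sort and lineage markers, none of them a member. The library labelled PBS LT-HSC *Il27ra*-/- replicate 2 had *Cd48* at 62.5 CPM, against 0 to 8.19 CPM in the other LT-HSC libraries, and *Slamf1* at 2.36 CPM, against 20.7 to 73.7 CPM. All 18 genes of an HSC list, led by *Meis1*, summed to 701 CPM in it, against 1686 to 3664 CPM in other LT-HSC and 458 to 832 CPM in HPC-1. All 16 genes of an HPC-1 list, led by *Mpo*, summed to 9148 CPM in it, against 8322 to 13560.0 CPM in HPC-1. The library labelled Ang II LT-HSC *Il27ra*-/- replicate 2 had the lowest HSC sum of the others (1686 CPM) and an HPC-1 sum of 5794 CPM, where the remaining LT-HSC libraries had 1389 to 2632 CPM. In that library a list of 14 neutrophil genes, all over the floor and led by *S100a9*, summed to 8882 CPM, against 102 to 1667 CPM in other LT-HSC. A macrophage and monocyte list (19 of 20 genes over the floor in some library), led by *Lyz2*, summed to 1878 CPM in it, against 115 to 418 CPM in other LT-HSC. Library PBS LT-HSC *Il27ra*-/- replicate 3 also held lineage transcripts. In it 14 erythroid genes, all over the floor and led by *Hba-a2*, summed to 3869 CPM, against 3889 CPM in Ang II LT-HSC *Il27ra*-/- replicate 2 and 364 to 1596 CPM in the other 15. Its neutrophil sum was 1667 CPM, against 102 to 344 CPM in those 15. It was kept, as its *Slamf1* (43.9 CPM), HSC sum (2903 CPM) and HPC-1 sum (1772 CPM) lay within the 13 LT-HSC libraries not yet named here, though its *Cd48* (4.15 CPM) lay above their 0 to 1.86 CPM. With this library alone left out, the averaged log2 fold change was −4.55 for *Itgal*, −1.05 for *Selplg* and −0.68 for *Vcam1*, and the same 9 members were called. Levels, differences between cell types, calls and r within LT-HSC are given with and without the 3 libraries, while r over 36 libraries and the results for lists of further genes use all 36. Without the 3 PBS LT-HSC has no WT library, so a difference between cell types is then the mean over 5 conditions in place of 6. The 2 *Il27ra*-/- libraries were set apart partly by markers that part LT-HSC from HPC-1. Leaving them out can therefore by itself widen differences between cell types, so fits without the 3 are no independent support for such differences.

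*Cxcr4* (ENSMUSG00000045382, chromosome 1, 128588199 to 128592293, minus strand; all positions are mm10) encodes the receptor for Cxcl12, the chemokine that draws stem cells to the niche and retains them. In PBS LT-HSC *Cxcr4* was at 16.6 CPM in WT, 107, 35.8 and 34.5 CPM in *Il27ra*+/-, and 21.8, 87.9 and 39.1 CPM in *Il27ra*-/-. With Ang II, LT-HSC had *Cxcr4* at 16.4 and 26.4 CPM in WT, 21.2, 37.0, 50.5 and 32.4 CPM in *Il27ra*+/-, and 29.2, 77.1, 44.3 and 32.7 CPM in *Il27ra*-/-. The 3 highest LT-HSC values came from PBS *Il27ra*+/- replicate 1 and from the 2 *Il27ra*-/- libraries that stand apart. In PBS HPC-1 *Cxcr4* was at 69.2 and 90.7 CPM in WT, 113, 135 and 79.6 CPM in *Il27ra*+/-, and 65.9, 87.0 and 97.1 CPM in *Il27ra*-/-. Ang II HPC-1 had *Cxcr4* at 66.1, 93.8 and 76.7 CPM in WT, 45.9, 98.5, 85.1 and 87.1 CPM in *Il27ra*+/-, and 83.2, 103, 77.3 and 86.2 CPM in *Il27ra*-/-. Most HPC-1 libraries lay above most LT-HSC libraries, and the ranges overlapped. By group mean *Cxcr4* was lower in LT-HSC in 6 of 6 conditions. Its log2 fold change, LT-HSC over HPC-1 and averaged over the 6 conditions, was −1.31 (adjusted p = 1.09e-05, SE 0.209) by the quasi-likelihood test of edgeR, with p adjusted after Benjamini-Hochberg here and below. Without the 3 libraries, over 5 conditions, it was −1.33 (adjusted p = 3.45e-08, SE 0.161). Of 17723 genes compared over the 36 libraries, those most like *Cxcr4* were *Rfc2* (r = 0.886, 0.83, 0.413 and 0.807), *Tubb5* (r = 0.88, 0.805, 0.353 and 0.719) and *Itpripl1* (r = 0.876, 0.808, 0.368 and 0.734), where the next 2 values are r within the 17 LT-HSC and the 19 HPC-1 libraries, and the last is r within the 14 LT-HSC libraries left without the 3, here and below.

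*Selplg* (ENSMUSG00000048163, chromosome 5, 113818536 to 113832644, minus strand) encodes PSGL-1, the ligand on which leukocytes roll over selectins. *Selplg* in PBS LT-HSC stood at 76.0 CPM in WT, 72.3, 51.4 and 53.1 CPM in *Il27ra*+/-, and 64.2, 196 and 94.5 CPM in *Il27ra*-/-. *Selplg* in Ang II LT-HSC stood at 43.8 and 70.6 CPM in WT, 82.9, 53.1, 55.1 and 54.8 CPM in *Il27ra*+/-, and 78.7, 189.5, 56.8 and 78.7 CPM in *Il27ra*-/-. The 2 *Il27ra*-/- libraries that stand apart held the highest values, at 196 and 189.5 CPM, where no other LT-HSC library passed 94.5 CPM. *Selplg* in PBS HPC-1 stood at 173 and 136 CPM in WT, 148, 151 and 173 CPM in *Il27ra*+/-, and 137, 150.4 and 156 CPM in *Il27ra*-/-. *Selplg* in Ang II HPC-1 stood at 149, 137 and 178 CPM in WT, 151, 207, 218 and 168 CPM in *Il27ra*+/-, and 169, 124, 161 and 183 CPM in *Il27ra*-/-. All HPC-1 libraries lay above the 15 other LT-HSC libraries, and only those 2 reached into the HPC-1 range. *Selplg* was lower in LT-HSC in 6 of 6 conditions, with a log2 fold change of −1.08 (adjusted p = 1.09e-06, SE 0.152) by the edgeR test. Leaving out the 3 libraries gave −1.30 (adjusted p = 1.12e-13, SE 0.0969). The genes most like *Selplg* were *Vim* (r = 0.956, 0.932, 0.189 and 0.737), *Hk3* (r = 0.949, 0.88, 0.659 and 0.728) and *Mpo* (r = 0.947, 0.912, 0.331 and 0.649).

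*Cd44* (ENSMUSG00000005087, chromosome 2, 102811141 to 102901665, minus strand) encodes the hyaluronan receptor, whose glycosylated form on progenitors also binds E-selectin. PBS LT-HSC had *Cd44* at 137 CPM in WT, 147, 96.9 and 112 CPM in *Il27ra*+/-, and 112, 262 and 142 CPM in *Il27ra*-/-. Ang II LT-HSC had *Cd44* at 137 and 205 CPM in WT, 168, 136, 103 and 109 CPM in *Il27ra*+/-, and 153, 309, 102 and 107 CPM in *Il27ra*-/-. Again the 2 *Il27ra*-/- libraries that stand apart were highest. PBS HPC-1 had *Cd44* at 285 and 258 CPM in WT, 282, 298 and 238 CPM in *Il27ra*+/-, and 317, 286 and 225 CPM in *Il27ra*-/-. Ang II HPC-1 had *Cd44* at 238, 281 and 205 CPM in WT, 276, 305, 243 and 206 CPM in *Il27ra*+/-, and 299, 326, 302 and 279.7 CPM in *Il27ra*-/-. Without the 3 libraries LT-HSC reached up to 205 CPM, in Ang II WT replicate 2, which met the lowest HPC-1 library. *Cd44* was lower in LT-HSC in 6 of 6 conditions, with a log2 fold change of −0.87 (adjusted p = 7.02e-06, SE 0.139) by the edgeR test. It was −1.02 (adjusted p = 1.2e-11, SE 0.0918) without the 3 libraries. Most like *Cd44* over the 36 libraries were *Serpinb1a* (r = 0.957, 0.939, 0.492 and 0.901), *Lcp1* (r = 0.947, 0.88, 0.702 and 0.654) and *Parvg* (r = 0.94, 0.918, 0.464 and 0.856). Among member pairs, *Cd44* and *Selplg* had r = 0.881 over 36 libraries, 0.833 within LT-HSC (0.477 without the 3 libraries) and −0.307 within HPC-1.

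*Itgal* (ENSMUSG00000030830, chromosome 7, 127296260 to 127335138, plus strand) encodes the alpha chain of LFA-1, the leukocyte integrin that binds ICAMs. In PBS LT-HSC *Itgal* was at 0 CPM in WT, 4.85, 9.41 and 9.31 CPM in *Il27ra*+/-, and 1.28, 122 and 26.8 CPM in *Il27ra*-/-. For Ang II LT-HSC, *Itgal* was at 4.33 and 13.9 CPM in WT, 5.18, 10.1, 6.91 and 5.84 CPM in *Il27ra*+/-, and 7.76, 85.3, 4.29 and 4.82 CPM in *Il27ra*-/-. The 2 *Il27ra*-/- libraries that stand apart were again highest, then PBS *Il27ra*-/- replicate 3 at 26.8 CPM, in which the neutrophil list summed to 1667 CPM. In PBS HPC-1 *Itgal* was at 166 and 119.7 CPM in WT, 119, 84.2 and 119 CPM in *Il27ra*+/-, and 121, 133 and 123 CPM in *Il27ra*-/-. For Ang II HPC-1, *Itgal* was at 138, 143 and 117 CPM in WT, 109.6, 160.4, 112 and 149.7 CPM in *Il27ra*+/-, and 146, 128, 139 and 139 CPM in *Il27ra*-/-. No HPC-1 library was under 84.2 CPM, and only the 2 libraries that stand apart overlapped with that range. In the PBS WT library of LT-HSC no *Itgal* count was seen, at least 100-fold below the HPC-1 mean of the same condition. *Itgal* was lower in LT-HSC in 6 of 6 conditions, and the average of the fitted log2 fold changes was −4.61 (adjusted p = 3.15e-06, SE 0.652) by the edgeR test. That average includes −12.03 for PBS WT, which is fitted to 1 library at 0 counts and goes beyond the 100-fold that the floor supports, while the other 5 conditions ran from −4.26 (Ang II *Il27ra*+/-) to −1.29 (PBS *Il27ra*-/-). The average of 5 conditions was −3.12 without PBS WT replicate 1 and −3.89 (adjusted p = 1.01e-13, SE 0.224) without all 3 libraries. Mean levels were 19.0 CPM in LT-HSC and 129.9 CPM in HPC-1, a ratio of 6.85, or 15.8 without the 3 libraries. The genes most like *Itgal* were *Ccl9* (r = 0.962, 0.882, 0.461 and 0.6), *Tespa1* (r = 0.948, 0.815, −0.048 and 0.609) and *Ifi209* (r = 0.947, 0.843, −0.216 and 0.7). Whether transcripts of the neutrophil list, or of the macrophage and monocyte list, account for part of *Itgal*, *Cd44* and *Selplg* was not tested. This holds for Ang II LT-HSC *Il27ra*-/- replicate 2 and for PBS LT-HSC *Il27ra*-/- replicate 3. Monocyte content was read only from the sum of a list led by *Lyz2*, and was not shown apart from neutrophil content. The sort took lineage-negative cells, and the paper's antibodies against mature lineages included Gr1 and CD11b. How pure the sorted samples were cannot be read from these counts.

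*Itga4* (ENSMUSG00000027009, chromosome 2, 79255426 to 79333123, plus strand) encodes the alpha chain of VLA-4, which binds Vcam1 and fibronectin. PBS LT-HSC had *Itga4* at 310.3 CPM in WT, 343, 342 and 399 CPM in *Il27ra*+/-, and 385, 526 and 361 CPM in *Il27ra*-/-. Ang II LT-HSC had *Itga4* at 344 and 342 CPM in WT, 424, 356, 322 and 308 CPM in *Il27ra*+/-, and 413, 406, 357 and 343 CPM in *Il27ra*-/-. Only PBS *Il27ra*-/- replicate 2, which stands apart, passed 424 CPM. PBS HPC-1 had *Itga4* at 553 and 528 CPM in WT, 509.9, 577 and 545 CPM in *Il27ra*+/-, and 606, 566 and 515 CPM in *Il27ra*-/-. Ang II HPC-1 had *Itga4* at 644, 571 and 479.5 CPM in WT, 529, 439.8, 582 and 538 CPM in *Il27ra*+/-, and 574, 626, 515 and 502 CPM in *Il27ra*-/-. Every HPC-1 library held at least 439.8 CPM, so that without the 3 libraries the cell types did not overlap. *Itga4* was lower in LT-HSC in 6 of 6 conditions, with a log2 fold change of −0.60 (adjusted p = 7.61e-09, SE 0.0708) by the edgeR test. Leaving out the 3 libraries gave −0.60 (adjusted p = 1.37e-09, SE 0.0659). *Itga4* was most like *Pdgfrb* (r = 0.936, 0.875, 0.208 and 0.797), *St8sia4* (r = 0.933, 0.847, 0.464 and 0.801) and *Satb1* (r = 0.927, 0.832, 0.127 and 0.543).

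*Itgb1* (ENSMUSG00000025809, chromosome 8, 128685654 to 128733200, plus strand) encodes the beta chain that pairs with both Itga4 and Itga6. *Itgb1* ran from 203 to 350 CPM in LT-HSC (median 242, n = 17) and from 163 to 274 CPM in HPC-1 (median 225, n = 19). Without the 3 libraries LT-HSC ran from 203 to 305.5 CPM (median 242, n = 14). The highest value was in the PBS WT library of LT-HSC. Of the LT-HSC libraries 13 lay within the HPC-1 range, and of the HPC-1 libraries 16 lay within the LT-HSC range. *Itgb1* was higher in LT-HSC in 5 of 6 conditions, with a log2 fold change of 0.21 (adjusted p = 0.0279, SE 0.0747) by the edgeR test. Without the 3 libraries it was 0.13 (adjusted p = 0.181, SE 0.0763), and without PBS WT replicate 1 alone 0.11 (adjusted p = 0.214), so that it was no longer called. Leaving out Ang II LT-HSC WT replicate 1 (adjusted p = 0.0594, with 1 library left in that group) or PBS HPC-1 WT replicate 1 (adjusted p = 0.0522) also took the *Itgb1* call away. The genes most like *Itgb1* were *Zfp93* (r = 0.683, 0.693, 0.523 and 0.655), *Armcx6* (r = 0.682, 0.459, 0.741 and 0.395) and *Ubash3b* (r = 0.668, 0.501, 0.716 and 0.454).

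*Itga6* (ENSMUSG00000027111, chromosome 2, 71745616 to 71858416, plus strand) encodes the alpha chain of the laminin-binding integrin VLA-6. In PBS LT-HSC *Itga6* was at 292 CPM in WT, 245, 246 and 318 CPM in *Il27ra*+/-, and 313, 131 and 269 CPM in *Il27ra*-/-. For Ang II LT-HSC, *Itga6* was at 339 and 284 CPM in WT, 292, 312, 317 and 282 CPM in *Il27ra*+/-, and 342, 223, 273 and 248 CPM in *Il27ra*-/-. The 2 lowest LT-HSC values were those of the *Il27ra*-/- libraries that stand apart. In PBS HPC-1 *Itga6* was at 177 and 147 CPM in WT, 142, 149 and 116 CPM in *Il27ra*+/-, and 142, 133 and 120.3 CPM in *Il27ra*-/-. For Ang II HPC-1, *Itga6* was at 174, 169.9 and 177 CPM in WT, 148, 108, 212 and 154 CPM in *Il27ra*+/-, and 146, 107, 159.5 and 109.9 CPM in *Il27ra*-/-. No HPC-1 library passed 212 CPM, and without the 3 libraries the lowest LT-HSC library was at 245 CPM. *Itga6* was higher in LT-HSC in 6 of 6 conditions, with a log2 fold change of 0.93 (adjusted p = 7.78e-10, SE 0.0969) by the edgeR test. It was 1.02 (adjusted p = 9.6e-13, SE 0.0831) without the 3 libraries. Most like *Itga6* over the 36 libraries were *Podxl* (r = 0.945, 0.851, 0.747 and 0.39), *Irak3* (r = 0.93, 0.793, 0.75 and 0.32) and *Prkca* (r = 0.929, 0.814, 0.665 and 0.031). *Itga6* and *Tek* had r = 0.769 over 36 libraries, 0.917 within LT-HSC (0.54 without the 3 libraries) and −0.002 within HPC-1.

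*Vcam1* (ENSMUSG00000027962, chromosome 3, 116109949 to 116129688, minus strand) encodes the VLA-4 ligand, made by endothelium and stroma and by some hematopoietic cells. *Vcam1* ran from 0 to 16.8 CPM in LT-HSC (median 2.62, n = 17) and from 0 to 10.4 CPM in HPC-1 (median 1.36, n = 19). It was at 0 in 4 LT-HSC and 2 HPC-1 libraries, and at or under the floor in 6 and 9 libraries. Its highest value was in Ang II LT-HSC *Il27ra*-/- replicate 2, the library rich in *Lyz2*. Without the 3 libraries LT-HSC reached 9.59 CPM, and the cell types overlapped. Mean levels of *Vcam1* were 3.87 CPM in LT-HSC (3.40 CPM without the 3 libraries) and 2.24 CPM in HPC-1, and LT-HSC was higher in 4 of 6 conditions. Its averaged log2 fold change was −0.34 (adjusted p = 0.878, SE 0.693) by the edgeR test, which includes −4.79 fitted for PBS WT from 1 library at 0 counts. It was 0.33 (adjusted p = 0.717, SE 0.622) without the 3 libraries, and its sign differed between fits. *Vcam1* was most like *Trim10* (r = 0.728, 0.755, 0.666 and 0.65), *Cdr2* (r = 0.711, 0.768, 0.62 and 0.753) and *Dmtn* (r = 0.698, 0.75, 0.592 and 0.633).

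*Tek* (ENSMUSG00000006386, chromosome 4, 94739289 to 94874976, plus strand) encodes Tie2, the angiopoietin receptor that holds HSC quiescent in the niche and is shared with endothelium. *Tek* in PBS LT-HSC stood at 96.0 CPM in WT, 70.4, 73.4 and 91.1 CPM in *Il27ra*+/-, and 85.1, 12.8 and 76.4 CPM in *Il27ra*-/-. *Tek* in Ang II LT-HSC stood at 87.6 and 60.2 CPM in WT, 86.7, 75.9, 102 and 73.5 CPM in *Il27ra*+/-, and 82.4, 48.7, 81.0 and 79.1 CPM in *Il27ra*-/-. The 2 lowest LT-HSC values were those of the *Il27ra*-/- libraries that stand apart, and that of PBS *Il27ra*-/- replicate 2 lay within HPC-1. *Tek* in PBS HPC-1 stood at 14.2 and 15.4 CPM in WT, 16.5, 9.75 and 17.9 CPM in *Il27ra*+/-, and 9.87, 15.7 and 18.4 CPM in *Il27ra*-/-. *Tek* in Ang II HPC-1 stood at 21.5, 12.99 and 0 CPM in WT, 8.64, 15.5, 39.1 and 20 CPM in *Il27ra*+/-, and 11.2, 4.87, 12.7 and 11.4 CPM in *Il27ra*-/-. The cell types did not overlap apart from PBS LT-HSC *Il27ra*-/- replicate 2, since HPC-1 ran from 0 (under a floor of 1.30 CPM) to 39.1 CPM and the next lowest LT-HSC library was at 48.7 CPM. *Tek* was higher in LT-HSC in 6 of 6 conditions, with a log2 fold change of 2.43 (adjusted p = 1.38e-07, SE 0.28) by the edgeR test. Leaving out the 3 libraries gave 2.51 (adjusted p = 2.26e-09, SE 0.238). Mean levels of *Tek* were 75.4 CPM in LT-HSC and 14.5 CPM in HPC-1, a ratio of 5.20, or 5.54 without the 3 libraries. Most like *Tek* over the 36 libraries were *Mllt3* (r = 0.961, 0.911, 0.929 and 0.667), *Prdm16* (r = 0.957, 0.883, 0.887 and 0.142) and *Ptgs1* (r = 0.948, 0.961, 0.842 and 0.524).

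*Robo4* (ENSMUSG00000032125, chromosome 9, 37401897 to 37415115, plus strand) encodes the roundabout receptor that, like Tek, is found on endothelium and on HSC, and that helps anchor HSC in the BM. In PBS LT-HSC *Robo4* was at 49.9 CPM in WT, 35.9, 32.9 and 40.5 CPM in *Il27ra*+/-, and 52.2, 19.3 and 43.8 CPM in *Il27ra*-/-. For Ang II LT-HSC, *Robo4* was at 21.2 and 13.9 CPM in WT, 25.0, 46.4, 43.8 and 42.7 CPM in *Il27ra*+/-, and 50.6, 14.2, 54.7 and 52.4 CPM in *Il27ra*-/-. Low LT-HSC values were those of the 2 Ang II WT libraries, of the 2 *Il27ra*-/- libraries that stand apart, and of Ang II *Il27ra*+/- replicate 1. In PBS HPC-1 *Robo4* was at 5.90 and 4.55 CPM in WT, 12.6, 28.3 and 10.2 CPM in *Il27ra*+/-, and 18.5, 16.0 and 12.7 CPM in *Il27ra*-/-. For Ang II HPC-1, *Robo4* was at 9.87, 7.29 and 3.46 CPM in WT, 0, 20.5, 9.99 and 11.3 CPM in *Il27ra*+/-, and 12.7, 12.2, 8.97 and 25.3 CPM in *Il27ra*-/-. HPC-1 reached 28.3 CPM, and its 0 lies under a floor of 1.36 CPM, so the ranges overlapped with these low LT-HSC libraries. *Robo4* was higher in LT-HSC in 6 of 6 conditions, with a log2 fold change of 1.74 (adjusted p = 6.31e-06, SE 0.27) by the edgeR test. It was 1.56 (adjusted p = 2.15e-06, SE 0.239) without the 3 libraries. *Robo4* was most like *Cd81* (r = 0.9, 0.485, 0.879 and 0.361), *Hoxa10* (r = 0.898, 0.764, 0.821 and 0.683) and *4930481A15Rik* (r = 0.89, 0.499, 0.937 and 0.31).

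*Tek*, *Robo4* and *Vcam1* are also endothelial genes, so an endothelial list was read beside them. All 24 of its genes were over the floor in some library, and it summed to 547 to 1846 CPM in LT-HSC (median 1126) and 364 to 604 CPM in HPC-1 (median 446). Its most abundant gene was *Vwf*, which is also on the megakaryocyte list, at a mean of 461 CPM in LT-HSC and 4.31 CPM in HPC-1. Of its genes, 9 were over the floor in all 17 LT-HSC libraries, among them *Kdr* (mean 24.7 CPM, against 1.41 CPM in HPC-1), *Eng* and *Emcn*. *Pecam1* (79.97 CPM in LT-HSC and 175 CPM in HPC-1) and *Egfl7* (28.8 and 35.1 CPM) were also among these 9, but were higher in HPC-1. Outside the 9, *Plvap* (1.504 and 4.24 CPM), *Sele* (0.222 and 2.78 CPM) and *Flt1* (1.04 and 1.58 CPM) were higher in HPC-1 too. *Flt4* and *Cldn5* were over the floor in 14 LT-HSC libraries and *Sox18* in 11, whereas *Cdh5* and *Stab2* were in 6 and *Lyve1*, *Nos3* and *Sox17* in 1 each. A stromal list (13 of 16 genes over the floor in some library), led by *Pdgfrb*, summed to 25.2 to 109 CPM in LT-HSC and 49.6 to 131 CPM in HPC-1. Of the macrophage and monocyte list, *Lyz2*, *Axl* and *Cd163* were over the floor in all 17 LT-HSC libraries, *Cd68* in 16, *Siglec1* and *Csf1r* in 12, *C1qc* and *Mertk* in 11, and *Marco* in 0. Lists of megakaryocyte genes (15 of 15, led by *Vwf*, medians 1510.0 and 358 CPM), B lymphoid genes (9 of 11, *Ighm*, 15.9 and 145 CPM) and T and NK genes (11 of 13, *Nkg7*, 22.8 and 44.8 CPM, *Gzma* at 0 throughout) were summed likewise. An erythroid list (14 of 14 genes, led by *Car2*) summed to 364 to 3889 CPM in LT-HSC (median 594) and 252 to 949 CPM in HPC-1 (median 456). Its 2 highest sums, 3889 CPM in Ang II *Il27ra*-/- replicate 2 and 3869 CPM in PBS *Il27ra*-/- replicate 3, led by *Hba-a2*, were in the LT-HSC libraries with the highest *Vcam1*, 16.8 and 9.59 CPM. Whether cells of these kinds add to the level of any member was not tested. Counts scaled to the library total cannot tell fewer expressing cells from less RNA per cell.

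**Figure D1:**
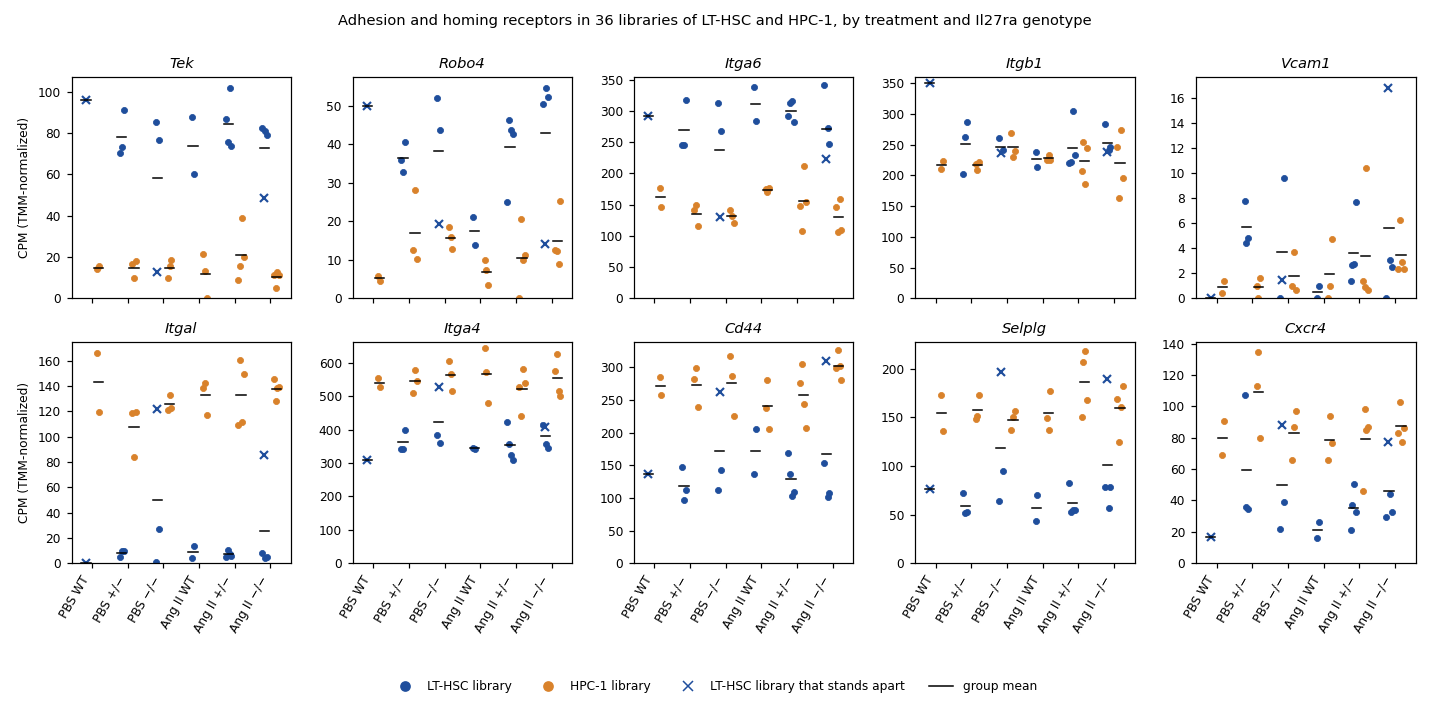
CPM of the 10 members in each library, by cell type, infused agent and *Il27ra* genotype, with a bar at each group mean. Blue dots are LT-HSC, orange dots HPC-1, and blue crosses the 3 LT-HSC libraries that stand apart.

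Taken over the 6 conditions, 9 of the 10 members were called between LT-HSC and HPC-1 by the edgeR test (adjusted p under 0.05), 4 higher and 5 lower in LT-HSC, where 35.7% of all 18013 genes tested were called. Without the 3 libraries 8 members were called, 3 higher and 5 lower, beside 46.2% of 14979 genes. In PBS *Il27ra*+/- 6 members were called, 2 higher and 4 lower (7.67% of all genes). That count was 2 without LT-HSC replicate 3 (2.82% of all genes) and 2 without HPC-1 replicate 1 (3.02%), and 3 without LT-HSC replicate 2 (4.46%) or HPC-1 replicate 2 (3.81%). In PBS *Il27ra*-/- no member was called (0.883% of all genes), with 5 at unadjusted p under 0.05 (10.8% of all genes). There DESeq2 called 2 members (2.48% of all genes) and limma-voom 8 (14.8%). Leaving out the 3 libraries raised the edgeR count from 0 to 7, 2 higher and 5 lower (10.1% of all genes), and leaving out LT-HSC replicate 2 alone raised it to 4 (6.48%). In Ang II WT 6 members were called, 2 higher and 4 lower (10.4% of all genes), and 2 without HPC-1 replicate 3 (6.33%). That LT-HSC group has 2 libraries, so leaving out either leaves 1, and such fits are not read here. In Ang II *Il27ra*+/- 8 members were called, 3 higher and 5 lower (14.9% of all genes). In Ang II *Il27ra*-/- 5 members were called, 2 higher and 3 lower (12.5% of all genes), and 8 without the 3 libraries, 3 higher and 5 lower (21.4% of all genes). Without LT-HSC replicate 2 alone it was 8 as well (15.9% of all genes), and without any 1 of LT-HSC replicates 1, 3 and 4 or HPC-1 replicates 1, 2 and 3 it was 3 (7.07% to 9.95%). PBS WT has 1 LT-HSC library and no call was made there.

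**Figure D2:**
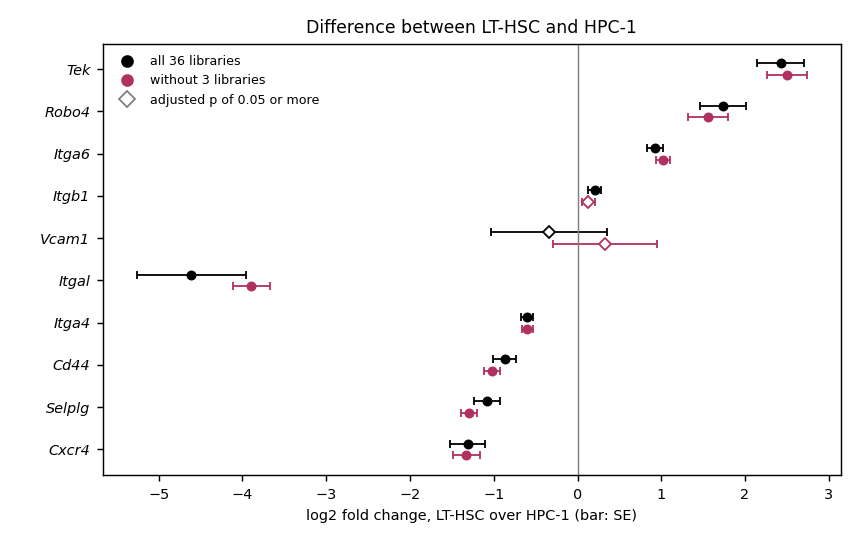
Log2 fold change of each member, LT-HSC over HPC-1 and with its SE. Black marks the average over 6 conditions in all 36 libraries, magenta that over 5 conditions without the 3 libraries that stand apart, and open diamonds an adjusted p of 0.05 or more.

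Per kilobase of exon, the members in all 17 LT-HSC libraries ranked *Itgb1* (mean 61.8, SD 9.07 CPM per kb), *Itga6* (30.8, 5.65), *Itga4* (26.4, 3.81), *Cxcr4* (23.1, 14.2), *Cd44* (22.0, 8.69), *Selplg* (18.9, 10.4), *Tek* (16.0, 4.35), *Robo4* (7.09, 2.64), *Itgal* (2.89, 5.04) and *Vcam1* (0.437, 0.501). Only *Itgb1* over *Itga6* and *Tek* over *Robo4* were neighbours that differed beyond their spread, judged by means and SDs. Library by library, *Itga6* was above *Itga4* in 15 of 17, *Itga4* above *Cxcr4* in 13, *Cxcr4* above *Cd44* in 10 and *Cd44* above *Selplg* in 14. *Selplg* was above *Tek* in 8, *Robo4* above *Itgal* in 15 and *Itgal* above *Vcam1* in 15. With the 3 libraries left out the means were *Itgb1* 60.6 (SD 7.28), *Itga6* 32.3 (3.66), *Itga4* 25.8 (2.40), *Cxcr4* 20.9 (12.2), *Cd44* 19.3 (4.55), *Tek* 17.05 (2.15), *Selplg* 15.2 (3.46), *Robo4* 7.49 (2.36), *Itgal* 1.25 (0.945) and *Vcam1* 0.383 (0.350), so that *Tek* passed *Selplg*. Then *Itgb1* over *Itga6*, *Itga6* over *Itga4*, *Selplg* over *Robo4* and *Robo4* over *Itgal* differed beyond their spread. In HPC-1 the ranking was *Itgb1* (55.2, 6.69), *Cxcr4* (47.7, 10.6), *Cd44* (40.0, 5.32), *Itga4* (39.2, 3.59), *Selplg* (37.8, 5.61), *Itgal* (19.8, 2.95), *Itga6* (16.3, 3.09), *Tek* (3.08, 1.68), *Robo4* (2.29, 1.35) and *Vcam1* (0.253, 0.290). There *Selplg* over *Itgal*, *Itga6* over *Tek*, and *Robo4* over *Vcam1* differed beyond their spread. Within HPC-1 libraries, *Itgb1* was above *Cxcr4* in 15 of 19, *Cxcr4* above *Cd44* in 15 and *Cd44* above *Itga4* in 13. *Itga4* was above *Selplg* in 11, *Itgal* above *Itga6* in 16 and *Tek* above *Robo4* in 12. Per kilobase, *Itgb1* thus led in both cell types, and *Vcam1* came last in both. The length used merges all annotated exons of a gene, 13978 bases for *Itga4* and 4081 for *Itgb1*, and need not be that of the expressed transcript. In CPM *Itga4* stood above *Itgb1*, with means of 369.6 and 252.0 CPM in LT-HSC and 547.3 and 225.3 CPM in HPC-1.

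Ang II was compared with PBS in 5 pairs of groups of like cell type and genotype. No member was called in any of the 50 tests by edgeR, DESeq2 or limma-voom, and the counts at unadjusted p under 0.05 were 0, 0 and 2. Of all genes, 0% were called by edgeR in each of the 5, and 2.96%, 2.86% and 5.73% of tests by the 3 tools were at unadjusted p under 0.05. In LT-HSC of *Il27ra*+/- the log2 fold changes of members ran from −0.73 (*Cxcr4*) to 0.14 (*Itga6*), and in *Il27ra*-/- from −1.02 (*Itgal*) to 0.50 (*Vcam1*). In HPC-1 they ran from −0.33 (*Tek*) to 1.01 (*Vcam1*) in WT, from −0.70 (*Robo4*) to 1.82 (*Vcam1*) in *Il27ra*+/-, and from −0.55 (*Tek*) to 0.96 (*Vcam1*) in *Il27ra*-/-. The smallest unadjusted p in edgeR was that of *Cxcr4* in HPC-1 of *Il27ra*+/-, at 0.054.

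*Il27ra* genotypes were compared within cell type and agent in 10 pairs of groups, which share groups with each other and with the Ang II comparisons. No member was called in the 100 tests by edgeR, DESeq2 or limma-voom, and 4, 9 and 7 were at unadjusted p under 0.05, beside 7.05%, 7.50% and 7.67% of the tests of all genes. Of all genes, 1.69% were called by edgeR between *Il27ra*-/- and WT in Ang II LT-HSC, 0.831% between *Il27ra*+/- and WT there, 0.0152% between *Il27ra*-/- and WT in PBS HPC-1, and 0% in the others. *Robo4* in Ang II LT-HSC was lower in both WT libraries, at 21.2 and 13.9 CPM, than in all 4 *Il27ra*+/- libraries, of which the lowest was at 25.0 CPM, a separation seen in 21.4% of all genes. In *Il27ra*-/-, replicate 2 overlapped with WT at 14.2 CPM, while the other 3 were at 50.6 to 54.7 CPM. The log2 fold change of *Robo4* was 1.31 for *Il27ra*-/- over WT (adjusted p = 0.165, SE 0.479 by the edgeR test) and 1.18 for *Il27ra*+/- over WT (adjusted p = 0.239, SE 0.478). Without the 3 libraries both were called, at 1.57 (SE 0.285, adjusted p = 0.00684, beside 5.79% of all genes) and 1.17 (SE 0.275, adjusted p = 0.0296, beside 2.81%). None of the 3 belongs to the groups compared for *Il27ra*+/- over WT. There the libraries compared and the change stayed alike, while the filter and the SE, 0.478 before, did not. With no filter on counts both *Robo4* changes were called in all libraries, at adjusted p = 0.00803 (beside 2.81% of all genes) and 0.0341 (1.67%). Leaving out Ang II LT-HSC *Il27ra*-/- replicate 2 alone gave 1.58 for *Robo4* in *Il27ra*-/- over WT (adjusted p = 0.0312). In PBS LT-HSC, by contrast, the WT library had *Robo4* at 49.9 CPM, above the 3 *Il27ra*+/- values and within the *Il27ra*-/- range. In PBS HPC-1 *Robo4* was again lower in both WT libraries than in all others, with log2 fold changes of 1.58 for *Il27ra*-/- and 1.69 for *Il27ra*+/- over WT, neither called, and such a separation was seen in 23.2% and 19.1% of all genes. In Ang II HPC-1 the *Robo4* values of WT overlapped with both other genotypes, with log2 fold changes of 1.07 and 0.56.

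Beside *Robo4*, other features of the WT libraries were read. A list of 24 intestinal epithelial genes (21 over the floor in some library, led by *Muc13*, *Fabp1* at 0 throughout) summed to 1264 and 1300.0 CPM in Ang II LT-HSC WT and to 1129 CPM in PBS WT, against 475 to 738 CPM in the other LT-HSC libraries. *Robo4* was low in the 2 Ang II WT libraries and not in that of PBS, at 49.9 CPM. *Agr2* was at 22.9 to 33.3 CPM in the 3 WT libraries of LT-HSC and at most 0.345 CPM in the others. In HPC-1 the intestinal list summed to 438 to 809 CPM (median 553), and *Agr2* was over the floor in 6 libraries. These features are given by genotype for LT-HSC only. All WT libraries expressed Y-linked genes, while in the *Il27ra*+/- and *Il27ra*-/- groups some did and some did not. With Y-linked level as a covariate *Robo4* had log2 fold changes of 1.24 (adjusted p = 0.261) and 1.12 (adjusted p = 0.347). Among libraries under 4M counts (2 in each of these groups) they were 0.93 (adjusted p = 0.608) and 1.04 (adjusted p = 0.853). The 2 of *Il27ra*-/- are replicate 1, with *Robo4* at 50.6 CPM, and replicate 2, which stands apart, at 14.2 CPM. The 0.93 therefore rests in part on that library. Whether intestinal transcripts, sex or depth account for the low *Robo4* of WT was not tested beyond these fits.

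Of the other members, *Selplg* in PBS LT-HSC was 1.01 higher on the log2 scale in *Il27ra*-/- than in *Il27ra*+/- (adjusted p = 0.982), and 0.42 higher without the 3 libraries. Without PBS *Il27ra*-/- replicate 2 alone it was 0.43, and among libraries under 4M counts, with 1 of *Il27ra*-/- left, 0.06. With no filter *Selplg* was called in this comparison (1.04, adjusted p = 0.00415, beside 0.651% of all genes), as was *Itgal* (2.675, adjusted p = 4.93e-08). *Itgal* was at 122 CPM in PBS *Il27ra*-/- replicate 2, which stands apart, and at 1.28 and 26.8 CPM in the others. In PBS *Il27ra*+/- it was at 4.85 to 9.41 CPM. No filter also gave calls in Ang II LT-HSC for *Cxcr4* (1.13, adjusted p = 0.0274) and *Itgal* (1.49, adjusted p = 0.0491) in *Il27ra*-/- over WT. It gave 1 for *Itgal* in *Il27ra*-/- over *Il27ra*+/- as well (1.845, adjusted p = 6.81e-05, beside 0.840% of all genes). In *Il27ra*-/- there, replicate 2, which stands apart, had *Itgal* at 85.3 CPM, against 4.29 to 7.76 CPM in the others. Its *Cxcr4* was at 77.1 CPM, against 29.2 to 44.3 CPM in the others. *Itga6* in Ang II HPC-1 was lower in *Il27ra*-/- (107 to 160 CPM) than in WT (170 to 177 CPM) without overlap, a separation seen in 5.27% of all genes, at −0.44 (SE 0.191, adjusted p = 0.954 by the edgeR test). Over all members, 12 of 150 comparisons between treatment or genotype groups of at least 2 libraries showed no overlap, beside 9.56% of 270195 comparisons over all genes.

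Interactions were tested in *Il27ra*+/- and *Il27ra*-/-, where both agents have replicates in both cell types. Whether the Ang II change differs between cell types gave no member called in 20 tests by edgeR, DESeq2 or limma-voom, with 0, 0 and 1 at unadjusted p under 0.05 (2.69%, 1.74% and 5.12% of tests of all genes) and 0% of all genes called by edgeR. Whether it differs between *Il27ra*-/- and *Il27ra*+/- gave none in 20 either, with 0, 0 and 0 at unadjusted p under 0.05 (1.97%, 1.56% and 3.53%) and 0% of all genes.

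Lists of genes that act with the members were read in the same comparison of LT-HSC with HPC-1, where the median log2 fold change of all genes was −0.01 and 35.7% of 18013 genes were called, 2968 higher and 3467 lower. Of 13 further integrin alpha chains tested, 4 were higher and 2 lower in LT-HSC (median −0.40), and of 7 beta chains 4 and 2 (median 1.06). *Itgb3* was at 24.5 to 417 CPM in LT-HSC (median 223) and 13.9 to 42.0 CPM in HPC-1 (median 27.8), a log2 fold change of 3.00 (adjusted p = 9.8e-11, SE 0.218), and its partner *Itga2b* changed by 1.85. Genes of integrin activation had 8 of 22 higher and 4 lower (median 0.16), homing signalling 5 and 9 of 22 (median −0.16), and chemokine and sphingosine phosphate receptors 3 and 6 of 16 (median −0.92). Of 18 selectins and genes of selectin ligand synthesis 6 were higher and 8 lower (median 0.01). *Fut7*, which builds the ligand on PSGL-1, was at 2.38 to 38.6 CPM in LT-HSC (median 5.92) and 20.9 to 45.6 CPM in HPC-1 (median 33.5), a change of −2.15 (SE 0.229, adjusted p = 1.06e-09). *C1galt1* of the same list was at 25.7 to 140.5 CPM in LT-HSC (median 69.5) and 22.0 to 46.2 CPM in HPC-1 (median 34.6), a change of 1.17 (SE 0.121, adjusted p = 6.18e-10). Of 21 immunoglobulin and cadherin adhesion genes 10 were higher and 4 lower (median 0.69 against −0.01 for all genes). Of 15 genes of the Tie, slit and roundabout families and their signalling 10 were higher and 0 lower (median 1.58). Among them *Tie1* was at 49.6 to 215 CPM in LT-HSC (median 170) and 20.5 to 51.3 CPM in HPC-1 (median 33.8), which is 2.27 on the log2 scale (adjusted p = 1.77e-12, SE 0.15). *Robo3* was at 3.39 to 105 CPM in LT-HSC (median 49.5) and 0.434 to 10.4 CPM in HPC-1 (median 3.18), with 3.80 (SE 0.314, adjusted p = 4.35e-10). Of 19 niche ligand and matrix genes 6 were higher and 4 lower (median 0.03). With Ang II, between genotypes and in the interactions no list gene was called, apart from *Alcam* (1.80, adjusted p = 0.0317) and *Cd63* (1.38, adjusted p = 0.0368), both higher in *Il27ra*-/- than in WT in Ang II LT-HSC. In that comparison 1.69% of all 16365 genes tested were called.

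The 250 bases upstream of the RefSeq start were read for the 6 members whose annotation could be matched, and those of *Tek* and *Robo4*, higher in LT-HSC, and of *Cd44* and *Cxcr4*, lower there, are shown for comparison. They are taken from RefSeq GRCm38.p6 and written 5′ to 3′, on the strand of the gene. *Tek* is chr4:94739039-94739288 (plus strand), *Robo4* chr9:37401722-37401896 (plus strand, 175 bases, cut where the Ensembl model begins), *Cd44* chr2:102901666-102901915 (minus strand) and *Cxcr4* chr1:128592300-128592549 (minus strand). Capitals mark GGAA, the core bound by ETS factors, and AGATAA, bound by GATA factors, on either strand, so that TTCC is GGAA on the other strand. GGAA occurred 2 times in *Tek*, 0 in *Robo4*, 8 in *Cd44*, 1 in *Cxcr4*, 1 in *Itga4* and 4 in *Itgb1*, and AGATAA 1 time, in *Cd44*. At least 1 GGAA was found in 93.4% and AGATAA in 9.99% of 32851 promoters of 250 bases. A match is a description of sequence, and binding was not measured.
Tek: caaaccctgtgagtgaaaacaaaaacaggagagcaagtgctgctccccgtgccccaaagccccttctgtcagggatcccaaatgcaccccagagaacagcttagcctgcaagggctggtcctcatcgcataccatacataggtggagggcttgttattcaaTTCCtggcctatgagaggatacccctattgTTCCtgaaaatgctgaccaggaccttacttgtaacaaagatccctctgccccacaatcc
Robo4: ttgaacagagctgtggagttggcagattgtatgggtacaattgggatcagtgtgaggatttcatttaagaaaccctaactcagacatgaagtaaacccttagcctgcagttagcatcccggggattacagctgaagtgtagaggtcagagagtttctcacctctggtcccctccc
Cd44: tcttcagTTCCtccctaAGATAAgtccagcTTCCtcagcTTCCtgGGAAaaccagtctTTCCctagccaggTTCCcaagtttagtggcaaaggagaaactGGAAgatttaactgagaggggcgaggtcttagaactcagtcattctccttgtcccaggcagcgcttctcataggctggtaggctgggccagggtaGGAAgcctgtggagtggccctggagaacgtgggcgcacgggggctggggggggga
Cxcr4: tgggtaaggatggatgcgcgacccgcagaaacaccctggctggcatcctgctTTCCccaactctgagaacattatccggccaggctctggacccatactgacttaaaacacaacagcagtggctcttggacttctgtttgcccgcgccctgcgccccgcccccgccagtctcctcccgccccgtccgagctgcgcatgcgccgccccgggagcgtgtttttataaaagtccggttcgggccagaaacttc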

How the data were processed

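The authors' deposited table of expected counts (RSEM) held 38887 Ensembl genes in 36 libraries of 5000 sorted cells. All values were whole numbers and none was rounded here. Depth was 1980283 to 6861078 counts. Symbols, positions and exon lengths came from the mm10 annotation, and a named gene was taken where its symbol matched 1 Ensembl id. Counts were scaled by TMM, filtered with filterByExpr and fitted per group with edgeR 4.0.16 (R 4.3.3) by the robust quasi-likelihood test, jointly and per cell type (18013, 16365 and 13199 genes tested). Benjamini-Hochberg adjustment was applied at 0.05, and SEs were derived as the log2 fold change over the root of F. The steps were tested on simulated data. Alternatives were DESeq2 1.42.0, limma-voom 3.58.1 with sample weights, upper quartile scaling, no filter, a mean of at least 10 counts, a Y-linked covariate, libraries under 4M counts, replicate number as a block, leaving out the 3 libraries that stand apart, and leaving out each library in turn. In a check of pairing, residuals of same-numbered LT-HSC and HPC-1 libraries had a median r of 0.071 (16 pairs) and of other pairs −0.024 (40 pairs). An r over 0.1 was found in 7 same-numbered pairs and in 4 other pairs. Y-linked genes differed within some same-numbered pairs. Their mean log2 CPM was −0.871 in LT-HSC and 6.341 in HPC-1 of PBS *Il27ra*-/- replicate 2, and −0.707 and 5.812 in PBS *Il27ra*+/- replicate 2. A shared number therefore does not always mean a shared animal, and neither this check nor the block can decide on pairing. Replicate numbers were not used as pairs in the tests reported, and enter only in the alternative with a block. The members and the lists were chosen with earlier results of these data known.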

Additional observations from a re-analysis of the deposited data

Results flagged for a closer look

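In each group of 4 libraries the gap between an extreme value and its nearest neighbour was divided by the range of the group. In 9 of 40 group and gene pairs that share was above Dixon's 95% critical value, which chance exceeds in about 1 in 20 groups. Over all genes that pass the filter, in the same 4 groups, it was exceeded in 14.2% of 72052 pairs. Of the 9, 4 come from 1 library that also stands apart by its markers: in Ang II LT-HSC of *Il27ra*-/-, replicate 2 had *Itgal* at 85.3 CPM, *Selplg* at 189.5 CPM, *Tek* at 48.7 CPM and *Robo4* at 14.2 CPM. In Ang II LT-HSC of *Il27ra*+/-, *Itgb1* was at 305.5 CPM in replicate 3, and replicate 1 had *Selplg* at 82.9 CPM and *Robo4* at 25.0 CPM. In Ang II HPC-1, *Vcam1* was at 10.4 CPM in *Il27ra*+/- replicate 3 and at 6.26 CPM in *Il27ra*-/- replicate 2.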

How the results depend on the processing

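Over the 6 conditions, the 9 members called between LT-HSC and HPC-1 by edgeR became 8 or 9 in the 9 alternatives and in the 36 fits that each left out 1 library. *Itgb1* was the member that lost its call, with no filter (adjusted p = 0.145), without the 3 libraries that stand apart (0.181) and among libraries under 4M counts (0.159). The difference of *Vcam1* changed from −0.34 to −1.38 among libraries under 4M counts, −0.05 in DESeq2, 0.61 in limma-voom, 0.008 with the replicate block, 0.33 without the 3 libraries and 0.55 without PBS LT-HSC WT replicate 1, with a range of −0.989 to 0.553 when 1 library was left out. In PBS *Il27ra*-/- the count of 0 became 2 in DESeq2, 8 in limma-voom, 1 with upper quartile scaling, 4 with no filter, 1 with a mean of at least 10 counts, 1 with the Y-linked covariate, 7 without the 3 libraries, 3 under 4M counts (with 1 LT-HSC library left), and 0 to 4 with 1 library left out. In PBS *Il27ra*+/- the count of 6 became 4 to 7 in the 10 alternatives and 2 to 5 with 1 library left out. In Ang II WT the count of 6 became 4 to 6 in the 10 alternatives and 0 to 5 with 1 library left out, where 2 of the 5 fits leave 1 LT-HSC library, with a spread taken from other groups, and cannot be read as a test of that group. In Ang II *Il27ra*+/- the count of 8 became 4 under 4M counts and 7 to 8 with 1 library left out. In Ang II *Il27ra*-/- the count of 5 became 8 in limma-voom, 8 with no filter, 8 without the 3 libraries, 1 under 4M counts, and 3 to 8 with 1 library left out. Between genotypes the count of 0 became 7 with no filter (*Itgal* in 3 comparisons, *Robo4* in 2, *Cxcr4* and *Selplg* in 1 each, all in LT-HSC), 2 without the 3 libraries and 0 to 1 with 1 library left out. The replicate block gave 9 members over the 6 conditions and 0 with Ang II and between genotypes. As replicate numbers do not always mark the same animal, this fit does not test pairing. Ang II changes and interactions gave 0 in all 10 alternatives and with each library left out. Leaving out the 3 libraries also changes the filter, from 18013 to 14979 genes tested. Fits restricted to only the groups compared cannot apply to the mean of 6 differences. The causes of these changes were not tested. As limits, WT rests on 1 to 3 libraries per group, and Y-linked expression and depth vary together within groups. In LT-HSC the PBS WT library has *Il27ra* just above the PBS *Il27ra*-/- values and within those of Ang II *Il27ra*-/-. In HPC-1 the genotypes overlap in *Il27ra*. Transcripts of other cells in a sorted sample cannot be subtracted. Levels are of RNA, and the proteins on the cell surface were not measured in these libraries.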
